A study of Mus musculus with 18 samples.

Results

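The genes examined were those for the proteins of the cytosolic ribosome, taken by symbol from the mm9 gene annotation. Protein-coding genes named Rpl or Rps with a number were kept, together with Rplp0, Rplp1, Rplp2 and Rpsa, while the Rps6k kinases and names holding -ps (retrocopies) were left out. The rule found 85 of 22350 protein-coding genes on chromosomes 1 to 19 and X. They comprised 31 genes for proteins of the small (40S) subunit, 42 for the large (60S) subunit, 3 for its stalk and 8 paralogs. The remaining gene, Rps19bp1, met the symbol rule but encodes a protein that binds Rps19 and SIRT1, not a ribosomal protein.

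Each ribosome holds a set of ribosomal proteins around its ribosomal RNA, so dividing and secreting cells transcribe the genes of these proteins at high and balanced rates. Their promoters are short and active in nearly every cell type, and many of their mRNAs begin with a run of pyrimidines through which mTOR signalling controls translation. NIPBL loads the cohesin ring onto chromatin and drives loop extrusion, and is often found at active promoters. RAD21 is the cohesin subunit that closes the ring, and cohesin stops mainly where CTCF binds DNA.

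RAD21 and NIPBL were mapped by chromatin immunoprecipitation and sequencing in mouse pro-B cells that v-Abl had made into a line, for a study of loop extrusion in V(D)J recombination, the joining of antigen receptor gene segments. In all 6 groups the cells were JH-del, RAG2 deficient, carried Emu-Bcl2 and expressed dCas9, a Cas9 that binds without cutting, and had been given 3 uM STI-571, an inhibitor of the Abl kinase, for 4 days. The dCas9 control groups (RAD21, n = 2, and NIPBL, n = 2) had no further allele named. The block groups (RAD21, n = 2, and NIPBL, n = 2) also expressed a guide RNA named Sg1-sgRNA. RAD21 was further mapped in cells labelled Ig2b wild type (n = 3), whose stated genotype equals that of the dCas9 control, and in Ig2b-del/del cells (n = 3). The labels do not say whether replicates were separate cultures or clones of the line, so each p below measures only the spread between these libraries, which may be technical. Binding at early B cell genes fitted the label: 10 of 10 early B cell markers had a NIPBL peak in every NIPBL library, against 51.7% of all protein-coding genes. The counts were 3 of 10 for T cell and 4 of 8 for myeloid markers, and the myeloid share was near that of all genes.

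The authors' peak lists held 44729 to 123391 peaks, covering 11.6 to 34.4 Mb. A gene was scored by the peaks that overlapped the window within 5 kb of its start by at least 1 bp, and by its covered bp, the length of that window under peaks. Covered bp measures the extent of called peaks, not an amount of protein, and read depth is not known from the lists. The RAD21 dCas9 lists numbered 2 stood apart: their peaks covered 3.21 times (control) and 2.21 times (block) as many bp around the 85 genes as those numbered 1, against 3.33 and 1.92 times around all genes. The lists of each number also share a style of peak names, so they are given apart below. For 30 of the 85 genes another protein-coding start lies within 5 kb, and their peaks cannot be assigned to 1 gene.

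Some RAD21 regions near these genes recurred in all 10 RAD21 lists, and the letters they held are described first. Peaks of the 10 lists were merged where they overlapped, and 51 merged regions within 5 kb of a start, at 38 genes, had a peak in every list. The motif searched was a 12-base CTCF core, CCNNNAGNNGGC, on both strands, and it lay in 33 of the 51 regions (64.7%), against 58.2% of the 5199 such regions near any protein-coding gene. Its most frequent spelling near these genes, CCAGAAGAGGGC, lay in 12 of the 51 regions (23.5%), against 13.3% near any gene; it was singled out after the sites were seen, and the regions near these genes were longer (median 840 against 762 bp). Regions of this kind lay at Rpl26, Rpl19, Rpl38, Rpl8, Rpl3l, Rps27, Rpl11, Rpl28, Rpl13 and Rpl29, among others. At 6 of the genes the match ran on to CCAGAAGAGGGCATCAGA, a spelling known from the B2 family of mouse SINE repeats. This longer form was found in 11.8% of the regions near these genes and in 4.69% near any gene. The sites below, read from mm9 5′ to 3′ with the core in capitals, show 5 sites of the longer form, from 5 genes, and 4 cores of other spelling at genes described below. A match is a description of the letters and not a measured CTCF site. The core shown at Rpl35 begins with CCGGAAG, the letters of the ETS family motif searched below. The start of another gene, Arpc5l, lies 2452 bp from that of Rpl35.
Rpl8 (chr15:76738719-76738742, minus strand): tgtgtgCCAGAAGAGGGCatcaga
Rpl28 (chr7:4747779-4747802, minus strand): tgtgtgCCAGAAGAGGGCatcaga
Rpl13 (chr8:125630329-125630352, plus strand): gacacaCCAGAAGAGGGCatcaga
Rpl11 (chr4:135610027-135610050, minus strand): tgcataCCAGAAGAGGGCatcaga
Rpl3l (chr17:24862983-24863006, plus strand): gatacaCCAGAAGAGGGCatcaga
Rpl38 (chr11:114534176-114534199, plus strand): ggcctgCCACCAGGTGGCactcta
Rplp0 (chr5:116009293-116009316, plus strand): tccgacCCAGCAGAGGGCagcagg
Rpl7l1 (chr17:46920130-46920153, plus strand): cagtggCCGCCAGGGGGCtcctta
Rpl35 (chr2:38863564-38863587, plus strand): cgcatcCCGGAAGTGGGCgggcga

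NIPBL was found at nearly all of the ribosomal protein genes. A peak lay within 5 kb of the start in every NIPBL library at 83 of the 85 genes (97.6%), against 51.7% of all protein-coding genes. It lay there in both control libraries at 83 genes (56.5% of all genes) and in both block libraries at 84 (57.8%). Single libraries gave 83 (66.6% of all genes) and 84 (61.9%) in the controls and 84 (60.7%) and 85 (70.4%) in the block, and all 31 of the 40S genes had a peak in each of the 4 libraries. Both exceptions belonged to the 60S side. Rpl10, whose protein is added late to the 60S subunit and is needed for the subunits to join, had 0 bp in control replicate 1, 119 bp in control replicate 2, and 572 and 110 bp in the block. Rpl39l, a paralog of the exit tunnel protein Rpl39 used in the testis, was at 0 bp in 3 libraries and had 143 bp in block replicate 2. Counting only the 55 genes with no other protein-coding start within 5 kb gave 53 (96.4%), against 45.03% of the 18072 genes of that kind.

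NIPBL presence was also counted at other genes of protein synthesis. The mitochondrial ribosomal protein genes, whose products build the ribosome of that organelle, had a peak in every NIPBL library at 72 of 77. For ribosome biogenesis and nucleolar genes the count was 22 of 22, and for translation initiation and elongation factors it was 34 of 35. Fau and Gnb2l1, ribosomal protein genes that the symbol rule does not reach, also had one in every NIPBL library. The retrocopies were unlike their parent genes: of 55 protein-coding entries named Rpl, Rps, Rplp or Rpsa with -ps, 6 (10.9%) had a peak in every NIPBL library and 10 (18.2%) in every RAD21 library. How the authors' alignment placed reads that fit both a gene's exons and a retrocopy is not given in the sources used here.

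NIPBL peaks sat on the start and reached into the gene. Among genes with a peak, it lay over the start itself in 78.6 to 88.1% of the ribosomal protein genes by library, against 60.2 to 67.5% of all genes. In the mitochondrial set it was 89.2 to 94.5%. The share of the 85 genes under a peak was highest 50 to 100 bp downstream of the start, at 84.7, 84.7, 89.4 and 90.6% (control replicates 1 and 2, block replicates 1 and 2). In all genes that maximum was 37.9 to 43.2%. More bp were covered downstream than upstream in 73.8 to 78.6% of the ribosomal protein genes with a peak, against 66.9 to 69.7% of all genes. The mitochondrial set leaned less to that side, at 58.1 to 66.2%.

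**Figure D1:**
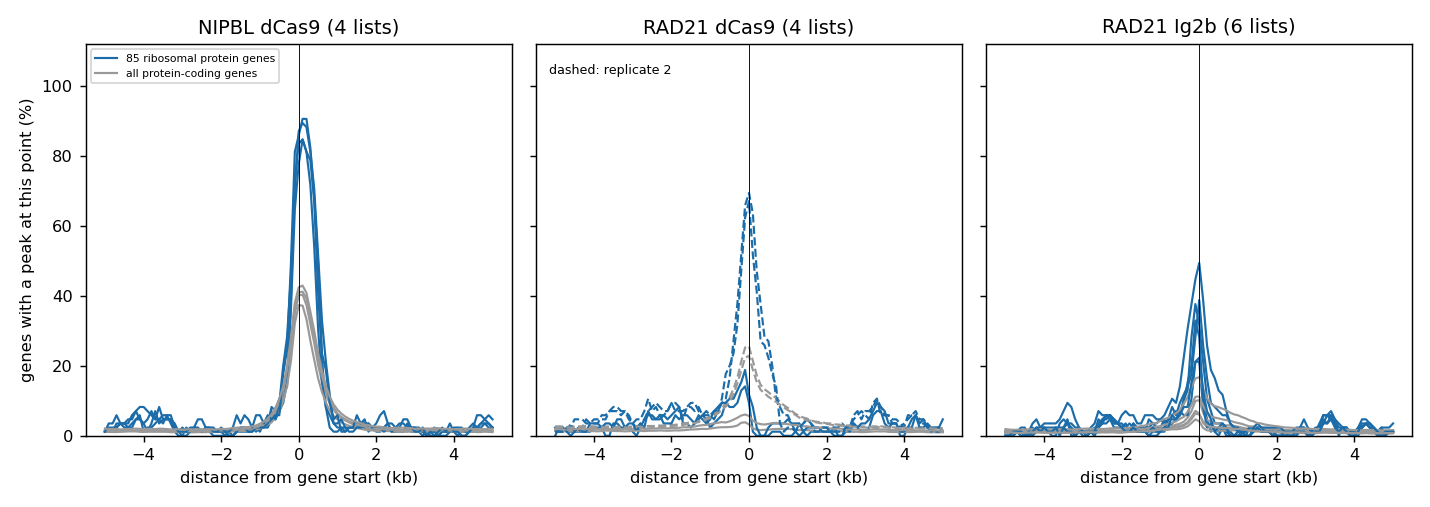
Share of genes with a peak (%) at each distance from the gene start (kb, downstream positive), one line per list, for the 85 ribosomal protein genes (blue) and all protein-coding genes (grey). NIPBL rises to 84.7 to 90.6% just downstream of the start, and RAD21 depends on the list, with the dashed dCas9 lists numbered 2 reaching 69.4 and 70.6%.

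NIPBL peaks at these genes were high more than they were wide. The fold of a peak is the authors' enrichment over background and can be ranked only within a list. Among genes with a peak, the median ribosomal protein gene stood at the 70.9th, 70.9th, 71.5th and 71.4th percentile of highest fold in the 4 NIPBL lists. For the widest peak it stood at the 61.9th to 64.8th. Median fold percentiles of mitochondrial ribosomal protein genes were 71.4 to 78.4. In the RAD21 lists the median fold percentile of the 85-gene set was 42.7 to 58.1.

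Among single genes Rpl18, a protein of the 60S subunit, had the most NIPBL in the controls. Its window held 2436 and 2231 bp under NIPBL peaks in the controls and 2618 and 3160 bp in the block, and both block values lay above both controls. Of its NIPBL regions, 3 were found in all 4 lists: 1 over the start, 1 at 2159 to 3100 bp downstream and 1 from -4753 to -3618 bp, upstream. The start of Sphk2 lies 2545 bp from that of Rpl18, so its window holds another gene's start. RAD21 at Rpl18 was at 0 bp in dCas9 replicate 1 of both groups, and at 1484 (control) and 1299 bp (block) in replicate 2. Rpl7 had 1810 and 1846 bp in the controls, most of it in 1 region from -1674 to 92 bp around the start, and the start of the retinol dehydrogenase gene Rdh10 lies 1112 bp away. Rpl19 had 1587 and 1541 bp, and Rpl35, which sits beside the exit tunnel, had 1746 and 1378 bp. Starts of other genes also lie near Rpl19 (Cacnb1, 3676 bp) and Rpl35 (Arpc5l, 2452 bp). These 4 stood at the 95.7th percentile of all genes or above. Rpl18 lay above Rpl7 without overlap, and Rpl7 above Rpl19. The values of Rpl19 and Rpl35 overlapped.

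**Figure D2:**
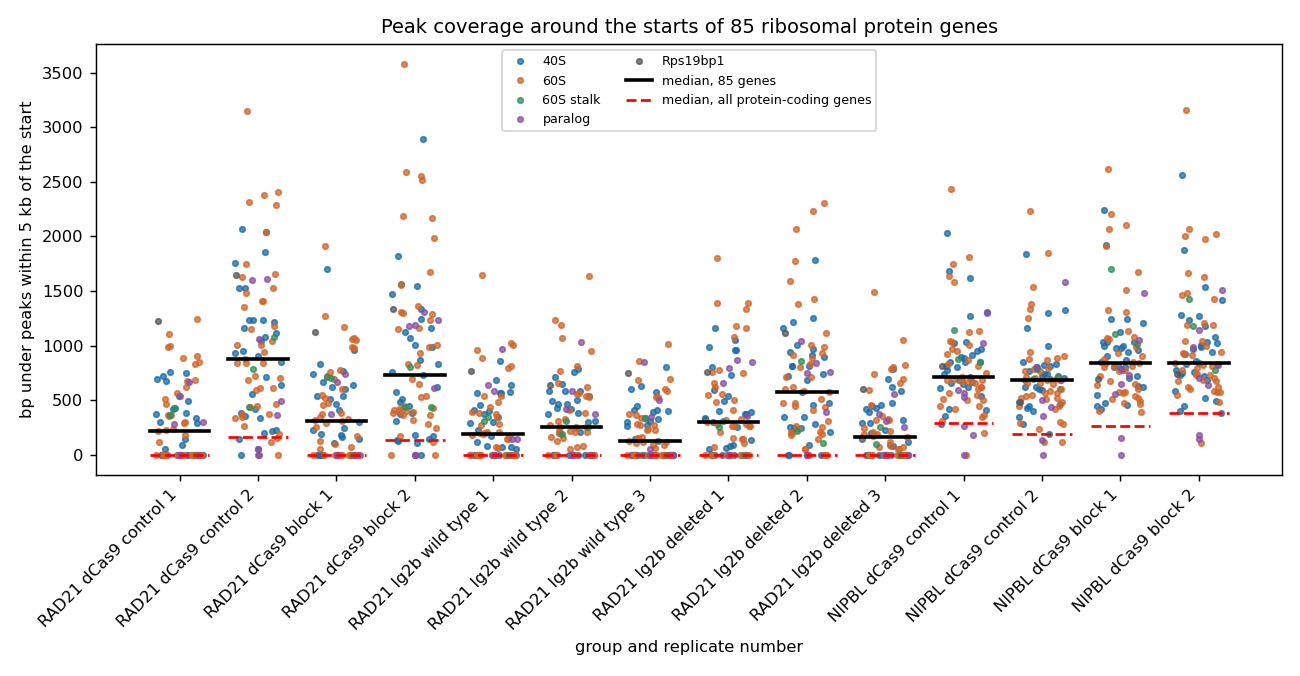
Covered bp within 5 kb of the start in each of the 14 lists, 1 point per gene coloured by class, with the median of the 85 genes (black) and of all protein-coding genes (red dashes). The NIPBL medians of the 85 genes lie at 684 to 846 bp, while the RAD21 medians range from 130 to 879 bp with the list.

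The 4 lowest NIPBL control means were those of Rpl39l, Rpl10, Rpl39 and Rpl10l. The X-linked Rpl39 had 201 and 120 bp in the controls, all downstream of its start. It had 491 and 487 bp in the block, where the peaks crossed the start. Rpl10l, an autosomal copy of Rpl10 used in male meiosis, had 265, 136, 160 and 184 bp, starting 16 bp downstream of its start. Rpl3, with 315 and 293 bp, and Rpl7l1, with 179 and 441 bp, came next above them. The other X-linked genes were higher, Rps4x with 420 and 434 bp and Rpl36a with 348 and 301 bp.

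Parent genes and paralogs were set side by side on mean NIPBL covered bp over the 2 control lists. Paralogs were lower for Rpl39 (160.5 bp) and Rpl39l (0 bp), for Rpl7 (1828 bp) and Rpl7l1 (310 bp), and for Rpl22 (829.5 bp) and Rpl22l1 (516.5 bp). In each of these pairs the values of the 2 genes did not overlap. The order was the other way for Rpl36a (324.5 bp) and Rpl36al (1441 bp), an autosomal gene whose start lies 75 bp from that of Mgat2, and for Rps27 (451 bp) and Rps27l (854 bp), a gene induced by p53. Rpl10l (200.5 bp) lay above Rpl10 (59.5 bp). The muscle paralog Rpl3l (461 bp) lay above Rpl3 (304 bp), and neither of its control values overlapped those of Rpl3. Rps27 held 714 and 188 bp, so its range overlapped that of Rps27l (1021 and 687 bp). Starts of other genes also lie in the windows of Rpl7 (Rdh10, 1112 bp), Rpl22l1 (Gm17485, 3213 bp) and Rpl36a (Btk, 2084 bp). The same holds for Rps27 (Rab13, 44 bp) and Rpl3l (Ndufb10, 3351 bp). In pairs with such a window the order cannot be assigned to the named genes alone.

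The stalk genes, whose products recruit the translation GTPases, all had NIPBL in every list: Rplp0 with 880 and 787 bp, Rplp1 with 848 and 711 bp and Rplp2 with 1144 and 692 bp in the controls. Rpsa, a 40S protein also known as the laminin receptor, had 777 and 619 bp of NIPBL in the controls and no RAD21 peak there. Rpsa had RAD21 peaks in 3 of the 10 lists, at 122 to 261 bp. Of the 14 genes with another protein-coding start within 1 kb (Rps27a, Rpl36al, Rpl15, Rpl35a, Rps2, Rps28, Rps18, Rpl7a, Rpl12, Rps27, Rpl9, Rpl13a, Rps25 and Rpl4), the closest was Rpl13a, 15 bp from Flt3l. Rps19bp1, the gene that encodes no ribosomal protein, had 819 and 485 bp of NIPBL and 1224 and 1644 bp of RAD21 in the controls. The NIPBL control means of the 14 genes ran from 314.5 bp at Rps28 to 1441 bp at Rpl36al.

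RAD21 was present at fewer of the genes, and at which ones depended on the list. A RAD21 peak lay within 5 kb of the start in both dCas9 control libraries at 48 of 85 genes, against 34.3% of all genes. The counts in the other groups were 57 in the block (41.3% of all genes), 44 in Ig2b wild type (27.3%) and 54 in Ig2b deleted (32.1%). In all 10 lists 39 genes (45.9%) had a peak, against 23.4% of all genes. Leaving out both dCas9 lists numbered 2 gave 39, and leaving out both numbered 1 gave 42. The dCas9 controls counted 48 (36% of all genes) in replicate 1 and 81 (54.7%) in replicate 2, so 33 genes had RAD21 only in replicate 2. The other lists counted 58 (45.3%) and 79 (53.4%) in the block, 57 (36%), 61 (40.8%) and 50 (31.1%) in Ig2b wild type, and 64 (42.5%), 74 (49.5%) and 55 (33.7%) in Ig2b deleted. The mitochondrial ribosomal protein genes counted 23 of 77 in all 10 lists.

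Rpl39, Rpl10l and Rpl39l had no RAD21 peak in any list, and neither did 37.6% of all genes. Among the genes of largest RAD21 coverage in the controls were Rpl35 (1110 and 3147 bp), Rpl19 (994 and 2312 bp), Rpl24 (852 and 2410 bp) and Rpl7 (622 and 2375 bp). In each of them control replicate 2 was the higher library, and the ranges of all 4 overlapped. In Ig2b wild type their values were 861 to 1644 bp (Rpl35), 341 to 1072 bp (Rpl19), 694 to 1010 bp (Rpl24) and 208 to 813 bp (Rpl7). Rpl35, Rpl19 and Rpl7 were also among the genes of most NIPBL in the controls. Rpl24, a protein of the bridge between subunits, was not: it had 505 and 484 bp of NIPBL there, at the 61.9th percentile of all genes.

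**Figure D3:**
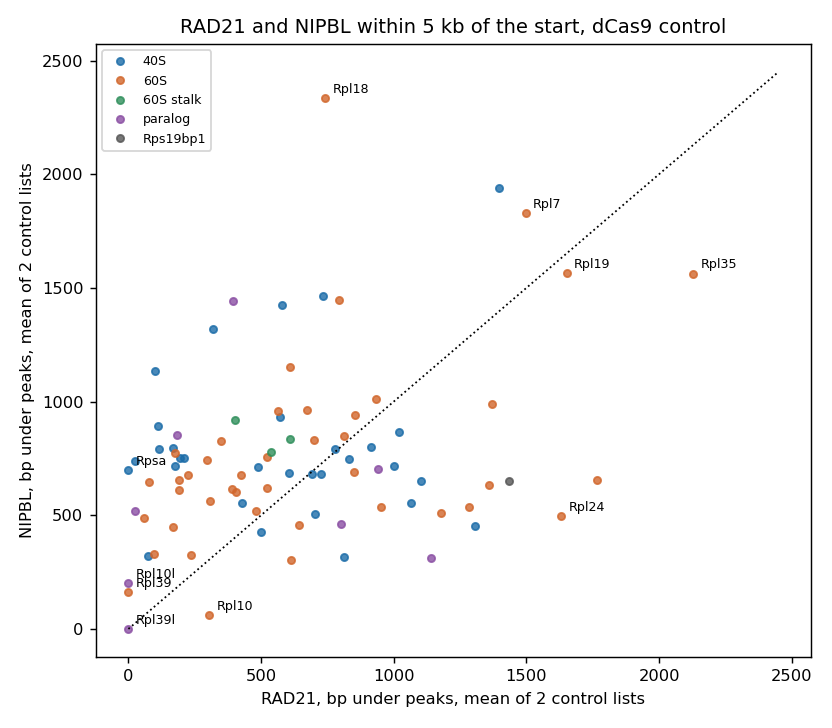
Mean covered bp of RAD21 (x) and NIPBL (y) over the 2 dCas9 control lists for each of the 85 genes, with the line of equal values dotted. Rpl18 lies far above the line, and Rpl24 lies far below it.

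Across the 85 genes RAD21 and NIPBL control means had a Spearman rho of 0.222 (Pearson r 0.327), and across all 22350 genes a rho of 0.672. These describe the genes and carry no p, since genes share the same libraries, and the all-gene value includes the many genes with no peak of either protein.

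The position of RAD21 differed between lists. It lay over the start in 16.7% (control) and 17.2% (block) of genes with a peak in the dCas9 lists numbered 1, in 72.8 and 72.2% of those numbered 2, and in 34.5 to 56.8% in the Ig2b lists. All genes gave 9.04 and 12.6%, 46.8 and 42.9%, and 13.3 to 33.9%. In dCas9 replicate 1 the peak nearest the start lay a median of 698 bp (control) and 802.5 bp (block) from it.

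The regions shared by all 10 RAD21 lists fell into 2 kinds. Of the 51, 21 lay over the start of the gene, and all 21 overlapped a NIPBL peak. The other 30 lay elsewhere in the window, 13 upstream and 17 downstream, and 14 of them (46.7%) overlapped NIPBL. Near all genes the shares were 96.6% of the 1523 regions over a start and 49.5% of the 3676 others, so the split was near that of other genes. A CTCF core lay in 12 of the 21 regions (57.1%) and in 21 of the 30 (70%), against 59.4% and 57.8% near all genes. The difference between the 2 kinds was not tested. Regions over the start included those of Rpl11, which with Rpl5 binds Mdm2, Rpl38, known for its part in translation of Hox mRNAs, and Rplp0. Regions away from it included Rpl19 at 3968 to 5350 bp downstream, where no NIPBL peak lay and the RAD21 fold was 8.45 to 16.9, and Rpl24 at 2868 to 3581 bp downstream, also without NIPBL. Rpl7 had RAD21 in all 10 lists but no single merged region with a peak in each.

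**Figure D4:**
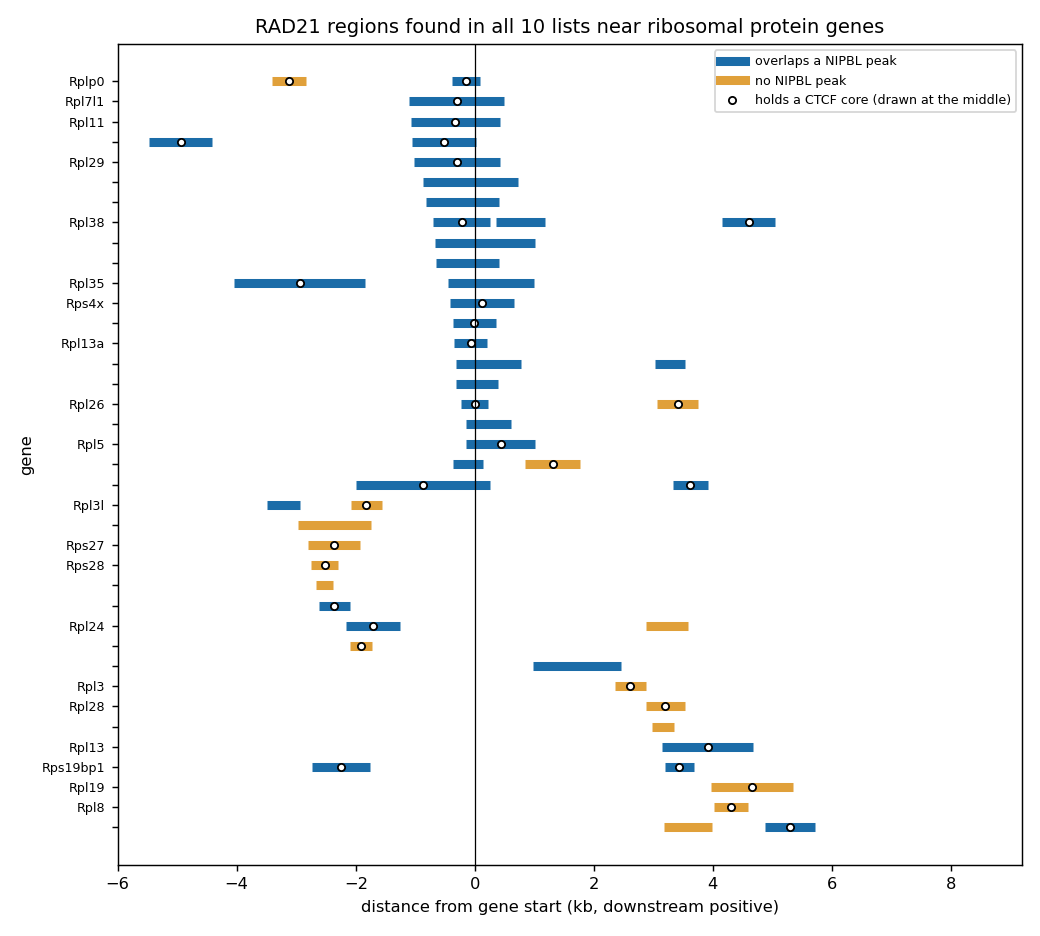
The 51 RAD21 regions found in all 10 lists, drawn by distance from the start (kb, downstream positive) at the 38 genes that hold them; blue regions overlap a NIPBL peak, orange ones do not, and a circle at the middle marks a region holding a CTCF core; a label is drawn for genes named in the text. All 21 regions over a start are blue.

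The promoters themselves carried the letters known for ribosomal protein genes. In the 200 bases before and 150 after the start, read from mm9, CCGGAAG (the ETS family motif, both strands) lay in 29 of 85 genes (34.1%), against 12.04% of all promoters of the same length and 31 of 77 mitochondrial ribosomal protein genes (40.3%). AAGATGGCG (YY1) lay in 8 (9.41%, against 2.38%), GGGCGG (GC box) in 58.8% (47.4%) and TATAA in 29.4% (22.7%). These were also counted on both strands and anywhere in that stretch, so a TATAA here need not lie where a TATA box would. A run of at least 8 pyrimidines on the sense strand, from 50 bases before to 100 after the start, lay in 77.6% (47.9%), and in 41.6% of the mitochondrial set. Median GC content was 58.6% against 57.1%. The 80 bases before the annotated start are shown for 3 genes with the ETS letters and for Rpl18, the gene of most NIPBL. CCGGAAG or its reverse complement CTTCCGG, and TATAA, are in capitals. The Rpl18 stretch holds TATAA. Near its end it also holds CGCCATCTT, the reverse complement of the YY1 letters, which is not in capitals.
Rpl19 (chr11:97887944-97888023, plus strand): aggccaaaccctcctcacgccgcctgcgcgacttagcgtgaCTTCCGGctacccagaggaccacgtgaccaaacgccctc
Rps18 (chr17:34092947-34093026, minus strand): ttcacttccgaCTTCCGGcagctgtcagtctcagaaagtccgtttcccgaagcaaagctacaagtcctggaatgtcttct
Rps6 (chr4:86503317-86503396, minus strand): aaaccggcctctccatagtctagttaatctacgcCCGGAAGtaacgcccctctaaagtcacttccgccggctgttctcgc
Rpl18 (chr7:52970747-52970826, plus strand): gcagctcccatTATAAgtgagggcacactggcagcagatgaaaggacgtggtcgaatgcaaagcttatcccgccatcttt

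Whether the Sg1 guide changed NIPBL at these genes was asked next. NIPBL coverage was longer in the block at many of them, as at other genes, and none passed the test. Both block libraries exceeded both controls at 43 of 85 genes, against 26.8% of all genes, and none was lower in the same way (4.17% of all genes). None gained a peak, meaning one in every library of the block and none of the controls (1.54% of all genes), and none lost one (1.17%). Among genes with enough coverage to be tested the shares were 43 of 84 and 41.7%. With limma on log2 of covered bp plus 500, 0 of 84 genes were called at an adjusted p under 0.05, as were 0 of 13774 genes tested (0%); at an unadjusted p under 0.05 the counts were 11 of 84, all higher, and 11.2% of all genes. Among the ribosomal protein genes that count was 6 with the replicate block and 2 after quantile normalization. It was also lower without block replicate 2 or control replicate 2. The shares of all genes in these fits are not reported here. The median difference on that log2 scale, block minus control, was 0.15 in the 84 genes and 0.16 in all, and after quantile normalization it was -0.03 and -0.02. Within replicate number 1 the block was higher at 61 genes and lower at 23, and within number 2 at 74 and 10. The shares higher were 72.6 and 87.1%, against 56.4 and 79.9% of all genes.

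Among the larger NIPBL differences without overlap was that of Rpl3l, with 565 and 357 bp in the controls and 791 and 1146 bp in the block. Rpl39, Rpl12 (686 and 539 bp, then 877 and 1468 bp) and Rpl7l1 (179 and 441 bp, then 729 and 643 bp) were of similar size, and in each of the 4 both block libraries were the higher. Their log2 differences were 0.57 to 0.61, with limma adjusted p-values of 0.413 to 0.449. Another gene's start lies 3351 bp from that of Rpl3l (Ndufb10) and 55 bp from that of Rpl12 (Lrsam1). RAD21 had 0 bp at Rpl39 in all 4 dCas9 lists and overlapped between control and block at Rpl3l (538 and 1062 bp, then 664 and 1191 bp) and at Rpl7l1 (666 and 1612 bp, then 743 and 1307 bp).

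**Figure D5:**
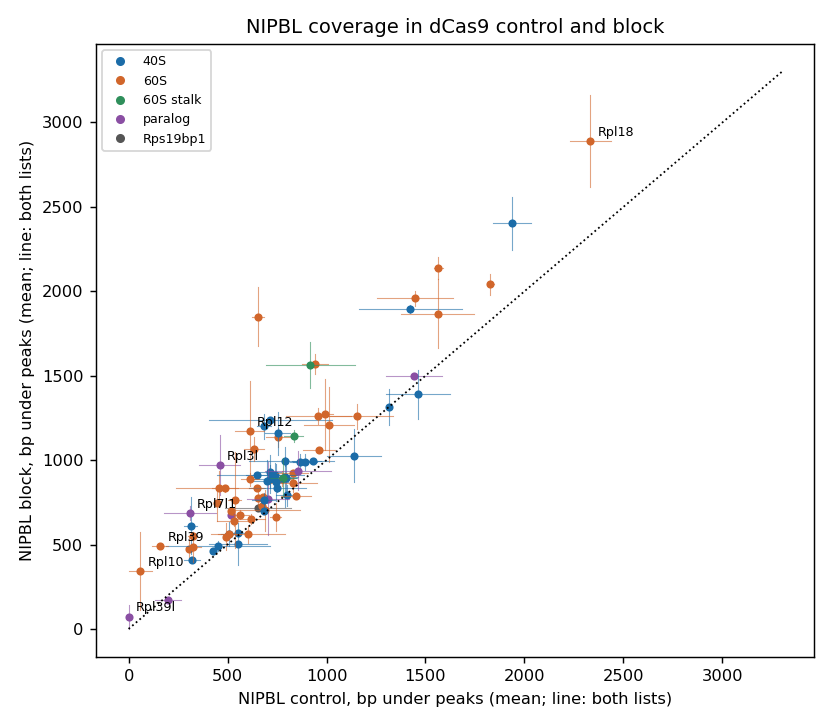
NIPBL covered bp in dCas9 control (x) and block (y) for each of the 85 genes, as the mean of 2 lists with lines joining both lists; the dotted line marks equal values. Most genes lie above it, among them Rpl3l, Rpl39, Rpl12 and Rpl7l1.

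No RAD21 difference between block and control passed the test at these genes. Limma called 0 of 75 genes tested and 0 of all 11375 (0%), with 0 at an unadjusted p under 0.05 in either. The gap between the lists numbered 1 and 2 enters the spread within each group, so this fit could hardly call a gene. With replicate number as a block, 341 of all genes (299 higher) and 0 of the 75 had an unadjusted p under 0.05, and limma again called 0. The median log2 difference was 0.01 against 0.07 in all genes. Only Rpl38 was higher in the block without overlap (1915 and 2185 bp against 986 and 1751 bp; log2 difference 0.48, SE 0.41, limma adjusted p 1), while 3.7% of all genes were; 0 were lower in that way, against 1.01%. Within replicate number 1 RAD21 was higher in the block at 47 genes and lower at 13, and within number 2 higher at 31 and lower at 51, so the direction turned with the number. The shares higher were 78.3 and 37.8%, against 83.3 and 38.7% of all genes, which turned likewise. The median log2 difference ranged from -0.39 without control replicate 1 to 0.50 without control replicate 2. No gene gained or lost RAD21, against 0.353% of all genes gained and 0.094% lost. The test of the block effect on NIPBL minus that on RAD21 called 0 of 83 genes and 0 of 13713 (0%) in limma, with 0 of 83 and 0.817% at an unadjusted p under 0.05.

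In the Ig2b experiment RAD21 coverage was longer in the deleted cells at most of these genes, as at all genes, and none passed the test. Limma called 0 of 62 genes tested and 0 of 8699 (0%), and 6 of 62 against 9.13% had an unadjusted p under 0.05, all 6 higher. The median log2 difference, deleted minus wild type, was 0.18 against 0.24 in all genes, and -0.10 against -0.03 after quantile normalization. Without deleted replicate 2 it was 0.05 against 0.09, with 37 genes above 0 and 21 below, and without deleted replicate 3 it was 0.37 against 0.39. In the latter case 20 genes had an unadjusted p under 0.05 in limma, and the share of all genes in that fit is not reported here. A RAD21 peak was gained at Rps18, Rpl27a and Rpl36a, against 0.676% of all genes, and lost at none (0.0224%). Rps18, a protein of the 40S head, had 0 bp in the 3 wild type lists and 594, 814 and 201 bp in the deleted ones. The peaks of deleted replicates 1 and 2 crossed the start, and that of replicate 3 lay downstream of it. Its limma log2 difference was 1.00 (SE 0.24, adjusted p 0.531). Rpl27a had 0 bp in wild type and 270, 573 and 162 bp, and Rpl36a 0 bp and 281, 444 and 73 bp. All 3 genes also had RAD21 peaks in the dCas9 lists numbered 2 (377 to 1161 bp) and none in those numbered 1. With peaks of −log10 q of at least 3 alone, 1 gene was gained.

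Every deleted library was above every wild type one at 7 of the 85 genes, against 5.91% of all genes, and at 7 of 62 tested against 14.2%. None was lower in that way (0.228%). The other 4 of them were Rps15a (569, 586 and 333 bp, then 964, 1786 and 791 bp), Rpl13 (542, 565 and 535 bp, then 1183, 1429 and 804 bp), Rps27l (143, 0 and 0 bp, then 356, 393 and 252 bp) and Rpl5 (186, 162 and 130 bp, then 552, 718 and 190 bp). In all 7 deleted replicate 2 was the highest. Deleted replicate 2 is also the longest Ig2b list, with 75597 peaks against 44729 to 60032 in the others.

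NIPBL and RAD21 coverage were compared directly within control and within block cells; antibodies differ, so this compares the length of called peaks. In the block NIPBL covered more than RAD21 at 12 of 83 genes by limma at an adjusted p under 0.05, and less at 0, against 14.7% and 2.95% of all genes. The share called higher was near that of all genes. Of the 12, 8 were among the 31 genes of the 40S subunit, and this split by subunit was not tested. The largest were Rps18 (NIPBL 1921 and 1872 bp, RAD21 0 and 377 bp; log2 difference 1.86, SE 0.33, adjusted p 0.0433) and Rps25 (1033 and 1285 bp, 0 and 141 bp; 1.55, SE 0.22, adjusted p 0.0349). Rps2, Rps23 of the decoding centre, Rps21, Rps6, the substrate of the S6 kinases, Rpl17, Rpsa and Rpl31 had log2 differences of 1.27 to 1.40, with limma adjusted p-values of 0.0345 to 0.0414. Rpl22l1 and Rpl39 were also called. Rps2, Rps18 and Rps25 share a promoter region with a neighbour. The calls depend on the libraries: limma called 0 of the 83 genes without RAD21 block replicate 1, without NIPBL block replicate 1 or without NIPBL block replicate 2, 43 without RAD21 block replicate 2, and 0 with replicate number as a block. After quantile normalization it called 11 higher and 8 lower, and of all genes 1790 higher and 2113 lower, against 2056 and 411 without it. The same block libraries enter the comparisons with the controls above.

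In control cells limma called 0 of 83 genes and 0 of 13544 (0%) for NIPBL minus RAD21, with 11 of 83 and 24.1% at an unadjusted p under 0.05. Without RAD21 control replicate 2 it called 34, all higher for NIPBL, and after quantile normalization 3 higher and 9 lower. NIPBL exceeded RAD21 without overlap at 34 of 85 genes in the control and 48 in the block, against 28.5% and 35.7% of all genes. Among genes tested the counts were 33 and 47 of 83, against 41.5% and 53.4%. RAD21 exceeded NIPBL without overlap at 9 genes in each (9.5% and 10.7% of all genes). Rpl24 was the farthest in that direction, at a log2 difference of -0.996 in the control (SE 0.46, limma adjusted p 0.268) and -0.92 in the block (SE 0.30, adjusted p 0.109). Rpl10l and Rpl39 had NIPBL in every library and RAD21 in none in both control and block cells, as did Rpsa in the control and Rpl17 and Rpl22l1 in the block (10% and 9.91% of all genes). The reverse, RAD21 in every library and NIPBL in none, was found at 0 genes in either, against 3.19% and 2.94%.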

How the data were processed

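RAD21 and NIPBL ChIP-seq peak lists of 14 libraries in 6 groups, named by the sample labels, were used; the 4 inputs were not used here. The submitters' processing notes name mm9, Bowtie2 2.2.8, SAMtools 1.8 and MACS2, whose settings are not given in the sources used here. The authors called peaks per library and deposited the fold of each peak, a ratio over background, its −log10 p and −log10 q, and a score that was not used. Peak names in the deposited lists mention a control for dCas9 and NIPBL lists, and removed duplicates for Ig2b lists. Starts were GENCODE vM1 on NCBIM37 (mm9), on which sequences were read.

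Covered bp within 5 kb of each start was computed at the authors' threshold. Genes averaging 100 covered bp or more entered limma 3.58.1, run in R 4.3.3 (two-sided test, log2 of covered bp plus 500, Benjamini-Hochberg over all genes tested, adjusted p under 0.05, no normalization). The fit was run on simulated data with independent noise, genes averaging 500 covered bp or more and no shift between lists. That check does not cover the gap between the RAD21 dCas9 lists numbered 1 and 2. Python 3.11.15 with pandas 2.3.3 and pysam 0.24.0 did the rest. The members and lists were chosen with earlier results of these data known. Named genes were the extremes of coverage, all called, gained or lost genes (up to 10), the 5 largest differences without overlap per comparison, paralog pairs, stalk genes, Rpsa, Rps19bp1 and genes with a start within 1 kb. Results for some items that this rule names are not reported here.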

Additional observations from a re-analysis of the deposited data

How the results depend on the processing

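The alternatives were peaks of −log10 q of at least 3, lists cut to equal length, quantile normalization, 100 bp added, no filter, a window of 1 kb, the peak centre, the start of the longest coding transcript, the replicate block and leaving out each library; where 1 library of a group remained, limma assumed that it varies like the others. The NIPBL block comparison called 172 genes, 1 of them a ribosomal protein gene (Rps26, chosen after its values were seen), at −log10 q of at least 3. The Ig2b comparison called 122 genes at that threshold, 1 with lists of equal length and 6 without a filter, and the test of the block effect on NIPBL minus RAD21 called 106 at that threshold and 124 without a filter. NIPBL minus RAD21 in the control called 4003 genes (21 ribosomal) at that threshold, 2555 (15) with lists of equal length, 2152 (12) with quantile normalization, 918 without a filter and 63 with the replicate block. In the block it called 6328 genes (34), 4780 (19) and 3903 (19) under the first 3 of these, 6 ribosomal genes with 100 bp added, 4 without a filter, and 0 genes with the replicate block. Leaving out 1 library gave 0 to 5147 genes (0 to 34 ribosomal; the most without RAD21 replicate 2) in the control and 0 to 6375 (0 to 43) in the block.

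The ribosomal genes with RAD21 in every library of a group fell with the 1 kb window to 24 (dCas9 control), 33 (block), 26 (Ig2b wild type) and 21 (all 10 lists), and at −log10 q of at least 3 to 35 (block), 25 (wild type), 31 (deleted) and 21 (all 10 lists). Leaving out 1 library gave 48 to 81 in the control, 81 being without control replicate 1. The NIPBL count was 53 over genes without a near neighbour, of which there are 55. Gained RAD21 in the dCas9 comparison was 1 with lists of equal length and 0 to 11 without 1 library (11 without control replicate 2), and lost was 0 to 2 (2 without control replicate 1 or block replicate 2). Gained NIPBL was 1 at −log10 q of at least 3 and 0 to 1 without 1 library (1 without control replicate 2 or block replicate 1). Gained RAD21 in the Ig2b comparison was 1 at that threshold and 3 to 6 without 1 library (6 without deleted replicate 3). The cause of these changes was not tested.

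Same-numbered libraries deviated together in the RAD21 dCas9 lists (r 0.726 over 11375 genes), with lower values in the NIPBL (-0.0201) and Ig2b lists (0.024, 0.180 and 0.222), and the labels do not say what a number marks. The numbers were not taken as pairs, in the RAD21 dCas9 lists because there are only 2 pairs. The replicate block changed no other call. For NIPBL minus RAD21 in the block (r -0.127), crossing the numbers in the replicate block, added after seeing the data, called 0 genes and 0 ribosomal genes. Read depth is not known from the lists.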
